A study of Mus musculus with 6 samples.

Results

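Expression of 45 genes of the Wnt pathway was examined in whole mouse kidneys at E15.5. The genes were taken by symbol and comprise 12 Wnt ligands, 10 Frizzled receptors, 5 co-receptors, 4 R-spondins with their 3 receptors, 2 receptor ubiquitin ligases, 5 intracellular components or feedback genes and 4 TCF/LEF factors. All 45 were found among the 24749 Ensembl gene identifiers of the deposited table. Kidneys of Foxd1cre; Yapc/c;Tazc/c embryos (3 libraries, called knockout here) were compared with Cre-negative wild-type kidneys (3 libraries), all on a mixed strain background. In the knockout, Cre recombinase driven by Foxd1 deletes floxed alleles of Yap (gene Yap1) and Taz (gene Wwtr1), 2 paralogous transcriptional co-activators of the Hippo pathway, in the stromal lineage. The ureteric and nephron epithelia lie outside that lineage, and RNA came from the whole organ. Fewer cells of a type and less RNA per cell can therefore not be told apart. The wild-type kidneys lack Cre, so an effect of the Cre allele cannot be told apart from that of the deletion. The series is concerned with Yap and Taz in the making of kidney pericytes. Its labels do not tie a library to an embryo or litter, so p-values reflect only how far these libraries vary, and that variation may be technical.

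Wnt proteins are secreted, lipid-modified ligands that bind a Frizzled receptor together with a co-receptor. With Lrp5 or Lrp6 the signal protects beta-catenin (Ctnnb1) from an Axin-scaffolded destruction complex, so that beta-catenin enters the nucleus and acts with TCF/LEF factors, whereas Ror and Ryk co-receptors serve beta-catenin-independent signalling. In the developing kidney, Wnt9b from the ureteric epithelium induces nephron progenitors, and Wnt4 in the resulting pretubular aggregates drives their conversion to epithelium. Wnt11 marks ureteric tips, Wnt7b from the collecting duct acts on the medullary interstitium, and R-spondins strengthen the response by taking the ubiquitin ligases Znrf3 and Rnf43 off the Frizzled receptors.

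Values are FPKM (fragments per kilobase of transcript, scaled for library size), which are scaled to gene length and can be set side by side between genes. From the steps in the low values, each library was estimated to hold 12800000 to 15400000 fragments, and 19704 to 20013 genes were above 0. The deposited values had been scaled between libraries, so the estimate is a scaled depth. It can differ from the number of fragments sequenced. Steps were searched only between 0.05 and 0.09 FPKM for 1 fragment per kilobase, so the fragment estimate is rough and bounded by that choice. Testing used limma on log2(FPKM + 1) for the 16899 genes whose 6-library mean reached 0.5 FPKM, and "called" stands for a Benjamini-Hochberg adjusted p below 0.05 across them. Log2 changes are knockout minus wild type on this scale, on which changes of low genes come out too small. Wwtr1 averaged 12.9 ± 0.635 FPKM in knockout and 18.8 ± 1.26 FPKM in wild-type kidneys (SD, n = 3 each) and was called lower (limma adjusted p = 0.0235), while Yap1, at 45.4 ± 2.94 FPKM in knockout and 51.0 ± 4.95 FPKM in wild-type kidneys, was not (limma adjusted p = 0.378). These are whole-gene levels, and which exons are floxed was not used here. Foxd1 averaged 4.50 ± 0.617 FPKM in knockout and 7.64 ± 1.31 FPKM in wild-type kidneys (SD, n = 3 each). It lay lower in every knockout library but was not called (limma adjusted p = 0.0886).

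Of the 45 members 37 passed the filter, 1 was called higher (Wnt4) and 0 were called lower. Over all genes tested 0.734% were called, 0.13% higher and 0.604% lower. With an unadjusted p under 0.05 there were 11 higher members and 0 lower, against 9.14% and 6.94% of all genes tested. For 12 members, 32.4% of those tested, all knockout libraries lay above all wild-type libraries, against 12.5% of all genes, and for 2 members (Wnt2b and Nkd2) they lay below, against 11.8% of all genes. The log2 change was above 0 for 28 of the 37 members (75.7%), against 49.6% of all genes tested. Its median was 0.10 for members, against -0.0020 over all genes tested. Most members were therefore not called, and the called member was the ligand Wnt4. Which cells of the organ its RNA came from was not tested.

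**Figure D1:**
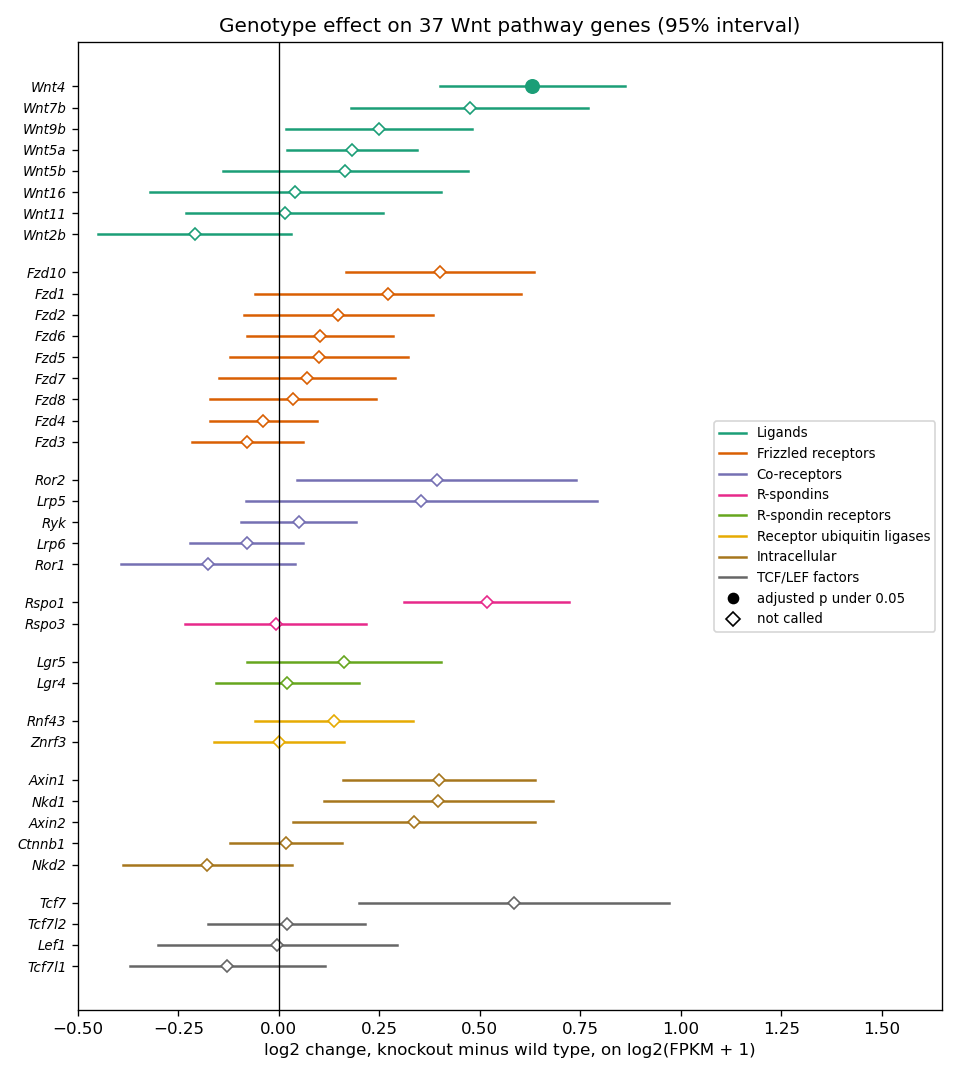
Log2 change of each of the 37 tested members (knockout minus wild type, x axis), grouped by role, with the 95% confidence interval from limma as a line. Only the filled point, Wnt4 at 0.63, has an adjusted p under 0.05, and open points are members that were not called.

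Promoter sequence of the called member and of the R-spondin gene with the next smallest p among the members is shown first, together with that of Axin2, the feedback gene most used as a readout of beta-catenin signalling. The bases printed lie upstream of the annotated start, on the plus strand of GRCm38.p6, and come from RefSeq. They span chr4:137277385-137277488 for Wnt4, chr4:124986180-124986429 for Rspo1 and chr11:108920099-108920348 for Axin2. No capitals are used, because the TEAD and TCF/LEF motifs searched were not found in them.
Wnt4: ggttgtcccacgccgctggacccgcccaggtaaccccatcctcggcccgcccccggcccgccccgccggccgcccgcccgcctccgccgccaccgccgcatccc
Rspo1: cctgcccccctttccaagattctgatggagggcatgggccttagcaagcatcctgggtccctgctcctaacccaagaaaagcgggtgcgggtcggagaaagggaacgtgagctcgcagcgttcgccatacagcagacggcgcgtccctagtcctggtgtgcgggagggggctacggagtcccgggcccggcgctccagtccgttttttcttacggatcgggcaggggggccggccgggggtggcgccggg
Axin2: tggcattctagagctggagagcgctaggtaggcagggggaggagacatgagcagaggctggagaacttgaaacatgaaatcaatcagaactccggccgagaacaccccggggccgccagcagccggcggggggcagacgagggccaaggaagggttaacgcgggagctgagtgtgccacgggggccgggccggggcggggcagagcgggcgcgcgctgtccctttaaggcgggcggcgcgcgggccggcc
These stretches are rich in G and C, which make up 83.7% of the Wnt4 bases, 66.8% of the Rspo1 bases and 69.2% of the Axin2 bases.

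RefSeq windows from 250 bases before to 50 bases after each start were available for 31 members (41 windows). They were searched on both strands for the core GGAATG of TEAD proteins, the DNA-binding partners of YAP and TAZ, and for 4 TCF/LEF motifs, which were CTTTGAT together with CTTTGAA, and CTTTGTT together with CTTTGTA. No TEAD match overlapped a TCF/LEF match in the member windows. TEAD letters were present in 2 of the 41 member windows (4.9%), against 14.7% of all 32851 windows, and TCF/LEF letters in 5 (12.2%), against 16.9% of all windows. The windows with a match belong to Lgr4 and Wnt5b for TEAD, and to Wnt11, Lef1, Fzd7, Tcf7l2 and Wnt5b for TCF/LEF. Matches of 3 members that carry different roles (a ureteric tip ligand, a TCF/LEF factor and an R-spondin receptor) are printed with 10 bases on either side and the matched letters in capitals, each as the reverse complement of the letters searched. The Lef1 match lies before a start inside the gene.
Wnt11 (TCF/LEF, chr7:98835051-98835077): acgtgggcggATCAAAGcgacggtccg
Lef1 (TCF/LEF, chr3:131156137-131156163): aacctcagaaTACAAAGtaggattgca
Lgr4 (TEAD, chr2:109917459-109917484): ccttgtcactCATTCCagagaaacac
A match describes letters in a short window and is not evidence of binding. Of these 3 genes, 0 were called by limma, and their values are given below with their roles.

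Among the ligands, Wnt4 was the most abundant in both genotypes. Wnt4 (ENSMUSG00000036856, chromosome 4, 137277489 to 137299726, GRCm38) measured 21.0, 19.7 and 19.7 FPKM in the knockout libraries, against 10.7, 13.1 and 14.3 FPKM in the wild-type libraries. The groups did not overlap, and the wild-type libraries were spread more widely than the knockout libraries. Its level rose to 20.1 ± 0.737 FPKM in knockout kidneys, against 12.7 ± 1.81 FPKM in wild-type kidneys (SD, n = 3 each), a ratio of 1.58 and a log2 change of 0.63 (SE 0.10, 95% interval 0.40 to 0.86, limma adjusted p = 0.0402). An exact two-sided permutation test gave p = 0.1, the smallest that 3 against 3 libraries allow. The call was lost when wild-type library 2 or any 1 knockout library was left out (adjusted p = 0.139 to 0.166), while the log2 change stayed between 0.52 and 0.71 without any 1 of the 6 libraries. Its call was likewise lost with libraries rescaled to equal sums, with no filter on low values, without robust moderation and without the mean-variance trend (adjusted p = 0.0628 to 0.0883). Wnt4 made up 33.4% to 35.2% of the summed FPKM of the 12 ligands in knockout libraries, against 25.4% to 27.7% in wild-type libraries.

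Markers of early nephron cells, in which Wnt4 is known to act, are given beside it. Whether other kidney cells, such as the stroma, also held Wnt4 RNA was not tested. Among 10 early nephron genes (such as Pax8, Lhx1, Jag1 and Hes5) limma called 0, and 4 passed an unadjusted p of 0.05 in the higher direction. Their summed level, to which Ccnd1 contributes most, was 313 to 323.5 FPKM in knockout libraries and 287 to 309 FPKM in wild-type libraries. Per 100 FPKM of that sum, Wnt4 measured 6.26 to 6.48 FPKM in knockout libraries and 3.74 to 4.61 FPKM in wild-type libraries, and the groups did not overlap. How far the number of early nephron cells takes part in the Wnt4 value was not tested. Markers of gonad and adrenal cortex, neighbouring tissues that also use Wnt4, were looked at as well. The 8 gonad markers summed to 4.58 to 5.76 FPKM in knockout and 4.62 to 5.10 FPKM in wild-type libraries, with Fgf9, which the kidney also expresses, giving most of it, and the granulosa cell factor gene Foxl2 listed at 0 in 5 of 6 libraries. The 7 adrenal cortex markers summed to 5.58 to 6.08 FPKM in knockout and 5.07 to 7.28 FPKM in wild-type libraries. Of the 2 adrenal genes that passed the filter limma called 0, and 1 was higher unadjusted. That gene was Mc2r, the corticotropin receptor, at 1.86, 1.68 and 2.01 FPKM in knockout libraries, against 1.21, 1.12 and 1.54 FPKM in wild-type libraries (log2 0.32, limma adjusted p = 0.227). The other was Star, which moves cholesterol into mitochondria, at 3.08 to 3.64 FPKM in knockout and 3.19 to 3.66 FPKM in wild-type libraries. The highest adrenal sum came from wild-type library 3, in which the steroidogenic enzyme gene Hsd3b1 reached 1.22 FPKM against at most 0.162 FPKM elsewhere. Cyp11a1, Cyp21a1, Cyp11b1 and Nr5a1, also below the filter, were likewise highest in that library, whereas Star and Mc2r were not. Cyp21a1 measured 0.319 FPKM there against at most 0.0837 FPKM elsewhere, and Cyp11b1 0.156 FPKM against at most 0.0295 FPKM. Without that library the log2 change of Wnt4 was 0.71 (limma adjusted p = 0.0294). The part of neighbouring tissue in the Wnt4 value was not tested.

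**Figure D2:**
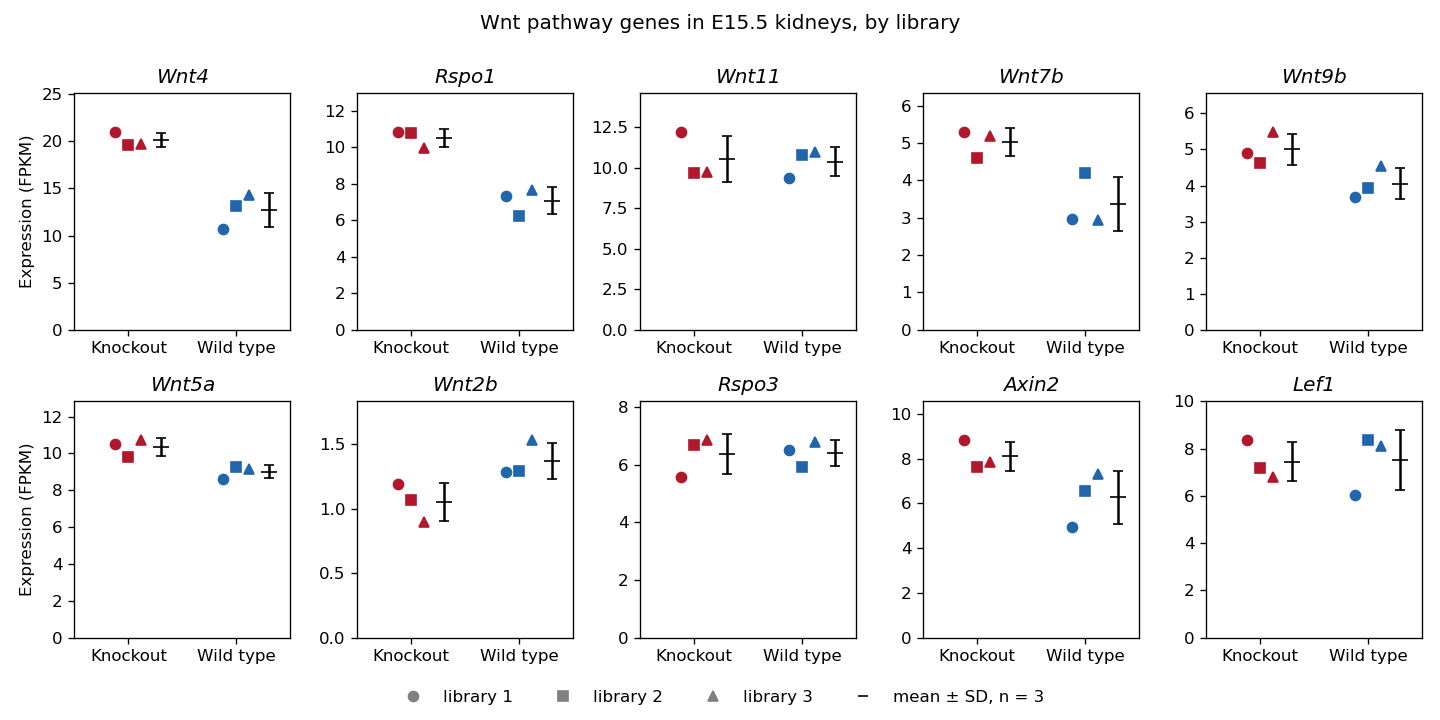
FPKM (y axis, from 0) of 10 members in each knockout (left) and wild-type (right) library, with symbols for library numbers and the mean ± SD beside them (n = 3). Wnt4 and Rspo1 separate the genotypes clearly, and of the 10 only Wnt4 was called. Wnt7b, Wnt9b, Wnt5a and Axin2 (higher in knockout) and Wnt2b (lower) also do not overlap, whereas Wnt11, Rspo3 and Lef1 overlap.

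Of the ligands of ureteric origin limma called 0, with Wnt7b and Wnt9b higher unadjusted. Wnt11, the tip ligand, measured 12.2, 9.66 and 9.73 FPKM in knockout libraries, against 9.35, 10.8 and 11.0 FPKM in wild-type libraries. The groups overlapped, and the log2 change of 0.015, which was -0.0022 with libraries rescaled to equal sums, had a 95% interval of -0.23 to 0.26 (limma adjusted p = 0.959). Wnt7b, the ligand of the collecting duct stalk, measured 5.29, 4.6 and 5.18 FPKM in knockout libraries, against 2.95, 4.19 and 2.95 FPKM in wild-type libraries. Every knockout library lay above every wild-type library, with a ratio of 1.49 and a log2 change of 0.47 (95% interval 0.18 to 0.77), but Wnt7b was not called (limma adjusted p = 0.163). Wnt9b, the inducer of nephron progenitors, measured 4.90, 4.63 and 5.48 FPKM in knockout libraries, against 3.68, 3.94 and 4.54 FPKM in wild-type libraries. Here too the groups did not overlap, narrowly, and the log2 change of 0.25 was not called (limma adjusted p = 0.284). Wnt6, known from the ureteric bud, stayed below the filter, with 0.269, 0.537 and 0.412 FPKM in knockout libraries, against 0.270, 0.312 and 0.367 FPKM in wild-type libraries.

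The summed ureteric markers lay higher in every knockout library. Among 8 tip markers (such as Ret, Etv4 and Etv5) limma called 0, with 5 higher unadjusted, and they summed to 145 to 161.5 FPKM in knockout and 118 to 126 FPKM in wild-type libraries. Among 10 collecting duct markers (such as Calb1, Hoxb7 and Krt8) limma called 0, with 6 higher unadjusted and sums of 444 to 494 FPKM in knockout and 353 to 420 FPKM in wild-type libraries. The log2 change was above 0 for 8 of these 10, and below 0 for Aqp2 (-0.21) and Upk3a (-0.26), whose groups overlapped. Wnt11 per 100 FPKM of the tip sum was 6.56 to 7.54 FPKM in knockout libraries and 7.89 to 8.71 FPKM in wild-type libraries, so that it lay lower in every knockout library on that scale. Wnt7b per 100 FPKM of the collecting duct sum was 0.931 to 1.19 FPKM in knockout libraries and 0.704 to 1.05 FPKM in wild-type libraries. Wnt9b on that scale was 0.939 to 1.13 FPKM in knockout libraries and 0.877 to 1.29 FPKM in wild-type libraries, so that both overlapped. The part of ureteric tissue content in the ligand values was not tested.

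Neither stromal ligand was called by limma, and Wnt5a was higher unadjusted. Wnt5a, a beta-catenin-independent ligand of the renal mesenchyme and stroma, measured 10.5, 9.80 and 10.7 FPKM in knockout libraries, against 8.59, 9.26 and 9.15 FPKM in wild-type libraries. All knockout values lay above all wild-type values, with a log2 change of 0.18 (limma adjusted p = 0.265). Wnt2b, a ligand of the stroma beneath the renal capsule, measured 1.20, 1.07 and 0.898 FPKM in knockout libraries, against 1.29, 1.29 and 1.53 FPKM in wild-type libraries. It lay lower in every knockout library, with a log2 change of -0.21 (95% interval -0.45 to 0.03, limma adjusted p = 0.369). Stromal markers are given beside them. Of 7 medullary stroma genes 3 were called lower (Cldn11, Zeb2 and Foxp2), and the sum was 145 to 155 FPKM in knockout libraries, against 228 to 248 FPKM in wild-type libraries. Of 9 cortical stroma genes 2 were called lower (Ntn1 and Clca3a1), and the sum was 344 to 351 FPKM in knockout and 372 to 381 FPKM in wild-type libraries. Unadjusted, 5 of the 9 were lower and 1 was higher. The higher gene was Aldh1a2, which lay above in every knockout library (log2 0.155). Of 7 smooth muscle genes 3 were called lower (Acta2, Tagln and Myl9), with sums of 68.7 to 93.5 FPKM in knockout and 167.5 to 193 FPKM in wild-type libraries. Per 100 FPKM of the medullary sum, Wnt5a was 6.76 to 6.94 FPKM in knockout and 3.47 to 4.06 FPKM in wild-type libraries. Wnt2b per 100 FPKM of the cortical sum was 0.256 to 0.347 FPKM in knockout and 0.339 to 0.406 FPKM in wild-type libraries, and overlapped on that scale. Endothelial markers, whose sums overlapped, totalled 199.7 to 201.8 FPKM in knockout and 191.1 to 202.2 FPKM in wild-type libraries, and red cell markers 5834 to 8807 FPKM in knockout and 5100 to 8425 FPKM in wild-type libraries. The part of stromal content in either ligand value was not tested.

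The remaining ligands were low or overlapped between genotypes. Wnt5b averaged 3.97 ± 0.231 FPKM in knockout and 3.47 ± 0.726 FPKM in wild-type kidneys, and Wnt16 averaged 1.79 ± 0.376 FPKM in knockout and 1.72 ± 0.438 FPKM in wild-type kidneys (SD, n = 3 each). Neither was called (limma adjusted p = 0.572 and 0.924). Wnt2, Wnt9a and Wnt10a did not pass the filter. In wild-type kidneys the mean levels of the ligands above 1 FPKM ran from Wnt4 through Wnt11 and Wnt5a, then Wnt9b, Wnt5b and Wnt7b, to Wnt16 and Wnt2b. Among neighbours in this order the wild-type ranges of Wnt4 and Wnt11, of Wnt9b and Wnt5b, of Wnt5b and Wnt7b, and of Wnt16 and Wnt2b overlapped, while the other neighbouring ranges did not. Summed over the 12 ligands the level was 59.2 ± 3.42 FPKM in knockout and 47.6 ± 4.83 FPKM in wild-type kidneys, and without Wnt4 it was 39.1 ± 2.76 FPKM in knockout and 34.8 ± 3.03 FPKM in wild-type kidneys (SD, n = 3 each).

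Of the 4 R-spondins, Rspo1 and Rspo3 passed the filter. Rspo1 (chromosome 4, 124986430 to 125009099), expressed by nephron progenitors, measured 10.8, 10.8 and 9.96 FPKM in knockout libraries, against 7.31, 6.26 and 7.67 FPKM in wild-type libraries. The groups were well apart, with a ratio of 1.49, a log2 change of 0.52 and a 95% interval of 0.31 to 0.72, yet Rspo1 was just not called (limma adjusted p = 0.0536). It was called with a pseudocount of 0.1 (adjusted p = 0.0482) and with a filter at a mean of 1 FPKM (adjusted p = 0.0469), and its adjusted p lay between 0.0469 and 0.390 over all alternatives. Among 10 nephron progenitor markers limma called 0, with 3 higher unadjusted and sums of 205 to 215 FPKM in knockout libraries, against 184 to 192 FPKM in wild-type libraries. Rspo1 per 100 FPKM of that sum was 4.86 to 5.11 FPKM in knockout and 3.40 to 4.13 FPKM in wild-type libraries. Rspo3, found in both nephron progenitors and stroma, measured 5.59, 6.70 and 6.87 FPKM in knockout libraries, against 6.52, 5.92 and 6.80 FPKM in wild-type libraries. These values overlapped, and the log2 change of -0.0080 had a 95% interval of -0.23 to 0.22 (limma adjusted p = 0.975).

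Frizzled genes showed no call. Of 10, 9 were tested and 0 were called by limma, with 1 higher unadjusted (Fzd10), log2 changes from -0.08 to 0.40 and a median of 0.10. Fzd1 measured 22.7, 22.4 and 23.2 FPKM in knockout libraries, against 14.5, 21.2 and 21.2 FPKM in wild-type libraries, so that its difference rested mainly on wild-type library 1 (log2 0.27, and 0.10 without that library). Fzd4, which together with Fzd8 is known to receive Wnt11 in ureteric branching of the mouse, measured 19.6, 20.4 and 18.8 FPKM in knockout libraries, against 20.8, 20.2 and 19.5 FPKM in wild-type libraries (log2 -0.04, 95% interval -0.17 to 0.10). Fzd8 averaged 5.39 ± 0.269 FPKM in knockout and 5.24 ± 0.491 FPKM in wild-type kidneys (SD, n = 3 each). Fzd10 had the largest log2 change of the 9 tested receptors and measured 4.36, 4.46 and 4.94 FPKM in knockout libraries, against 2.80, 3.55 and 3.36 FPKM in wild-type libraries. Its groups did not overlap, and its log2 change of 0.40 (95% interval 0.17 to 0.63) was not called (limma adjusted p = 0.145). Fzd2, Fzd3, Fzd5, Fzd6 and Fzd7 had log2 changes between -0.08 and 0.15 with overlapping groups, and Fzd9 did not pass the filter.

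Of the 5 co-receptors limma called 0, with Ror2 higher unadjusted. Lrp6, the more abundant Lrp co-receptor, measured 37.1, 33.8 and 34.8 FPKM in knockout libraries, against 36.0, 39.5 and 36.4 FPKM in wild-type libraries (log2 -0.08, limma adjusted p = 0.552). Lrp5 measured 18.9, 11.9 and 14.4 FPKM in knockout libraries, against 9.42, 12.2 and 12.8 FPKM in wild-type libraries. Its log2 change of 0.35 went with a high knockout library 1 and a low wild-type library 1, and was 0.19 without the first and 0.23 without the second. Ryk, a pseudokinase receptor, measured 36.4, 39.3 and 38.5 FPKM in knockout libraries, against 34.3, 37.8 and 38.3 FPKM in wild-type libraries, with overlapping groups (log2 0.05). The receptor tyrosine kinase genes Ror1 and Ror2 lay on opposite sides of 0. Ror2, a receptor for Wnt5a, measured 5.42, 3.72 and 3.99 FPKM in knockout libraries, against 2.48, 3.30 and 3.46 FPKM in wild-type libraries (log2 0.39, limma adjusted p = 0.265), and its log2 change was 0.26 without knockout library 1. Ror1 averaged 10.4 ± 1.04 FPKM in knockout and 11.9 ± 1.01 FPKM in wild-type kidneys (log2 -0.18, limma adjusted p = 0.394, SD, n = 3 each), with a log2 change of -0.10 without knockout library 2 and -0.11 without wild-type library 3.

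No R-spondin receptor and neither ubiquitin ligase was called by limma, and 0 of the 4 tested passed an unadjusted p of 0.05. Lgr4 measured 49.2, 44.6 and 49.7 FPKM in knockout libraries, against 51.4, 46.8 and 43.3 FPKM in wild-type libraries, with overlapping groups and a 95% interval of the log2 change from -0.16 to 0.20. Lgr5, a target of beta-catenin found in the forming nephron, measured 4.31, 3.59 and 3.32 FPKM in knockout libraries, against 3.37, 3.02 and 3.28 FPKM in wild-type libraries (log2 0.16, limma adjusted p = 0.479), and its log2 change was 0.078 without knockout library 1. Znrf3 measured 14.4, 12.7 and 12.6 FPKM in knockout libraries, against 13.4, 13.0 and 13.3 FPKM in wild-type libraries. Rnf43, like Znrf3 a feedback gene, measured 5.29, 5.45 and 4.73 FPKM in knockout libraries, against 4.37, 4.81 and 4.61 FPKM in wild-type libraries. The log2 change of Znrf3 was 0.00030 (-0.017 with equal sums and -0.016 with quantile normalization) and that of Rnf43 0.14, and neither was called (limma adjusted p = 0.999 and 0.465). Lgr6, which was below the filter, measured 0.478, 0.399 and 0.347 FPKM in knockout libraries, against 0.148, 0.343 and 0.242 FPKM in wild-type libraries.

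Inside the cell, none of the 5 components was called by limma, and 3 (Axin1, Axin2 and Nkd1) had an unadjusted p under 0.05 in the higher direction. Ctnnb1 was by far the most abundant member, at 404, 434.5 and 442.5 FPKM in knockout libraries, against 425, 425 and 414 FPKM in wild-type libraries (log2 0.02, or -0.00032 with equal sums, 95% interval -0.12 to 0.16). Axin2, a direct beta-catenin target that feeds back on the pathway, measured 8.83, 7.65 and 7.83 FPKM in knockout libraries, against 4.96, 6.55 and 7.29 FPKM in wild-type libraries. All knockout values lay above all wild-type values, with a ratio of 1.29, and the log2 change of 0.34 (95% interval 0.04 to 0.64) was not called (limma adjusted p = 0.267). Without wild-type library 1 it was 0.20. Axin1, the scaffold of the destruction complex, measured 16.5, 15.1 and 15.9 FPKM in knockout libraries, against 9.93, 12.4 and 13.2 FPKM in wild-type libraries (log2 0.40, limma adjusted p = 0.153). Nkd1, an inhibitor that binds Dishevelled and is induced by Wnt signals, measured 11.6, 9.19 and 9.84 FPKM in knockout libraries, against 6.24, 8.33 and 8.02 FPKM in wild-type libraries (log2 0.40, limma adjusted p = 0.197). Its paralog Nkd2 lay below, at 3.20, 3.12 and 3.07 FPKM in knockout libraries, against 3.78, 3.30 and 3.96 FPKM in wild-type libraries (log2 -0.18, limma adjusted p = 0.378).

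Of the 4 TCF/LEF factors limma called 0, with Tcf7 higher unadjusted. Tcf7 measured 9.09, 6.39 and 7.73 FPKM in knockout libraries, against 3.70, 5.0 and 5.84 FPKM in wild-type libraries. The groups did not overlap, but the spread within both groups was wide and the log2 change of 0.58 (SE 0.17, 95% interval 0.20 to 0.97) was not called (limma adjusted p = 0.178). Lef1, found in pretubular aggregates and in medullary stroma, measured 8.36, 7.19 and 6.78 FPKM in knockout libraries, against 6.05, 8.35 and 8.12 FPKM in wild-type libraries. Its groups overlapped, with a 95% interval of the log2 change from -0.30 to 0.29 (limma adjusted p = 0.992). Tcf7l2 measured 9.67, 8.95 and 8.87 FPKM in knockout libraries, against 9.54, 9.5 and 8.09 FPKM in wild-type libraries. Tcf7l1, which acts mainly as a repressor, averaged 2.72 ± 0.368 FPKM in knockout and 3.06 ± 0.229 FPKM in wild-type kidneys (log2 -0.13, limma adjusted p = 0.580, SD, n = 3 each).

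Many of these differences shared the same libraries. Wild-type library 1 was the lowest of the 6 libraries for 19 of the 37 tested members (51.4%), against 24.2% of all genes tested, and knockout library 1 was the highest for 18 (48.6%), against 20.5% of all genes. Without wild-type library 1, the log2 change was above 0 for 27 members, against 50.9% of all genes in that fit. An unadjusted p under 0.05 was found for 8 higher and 0 lower members, against 7.37% and 5.88% of all genes, and Wnt4 remained called (log2 0.52, limma adjusted p = 0.0305).

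**Figure D3:**
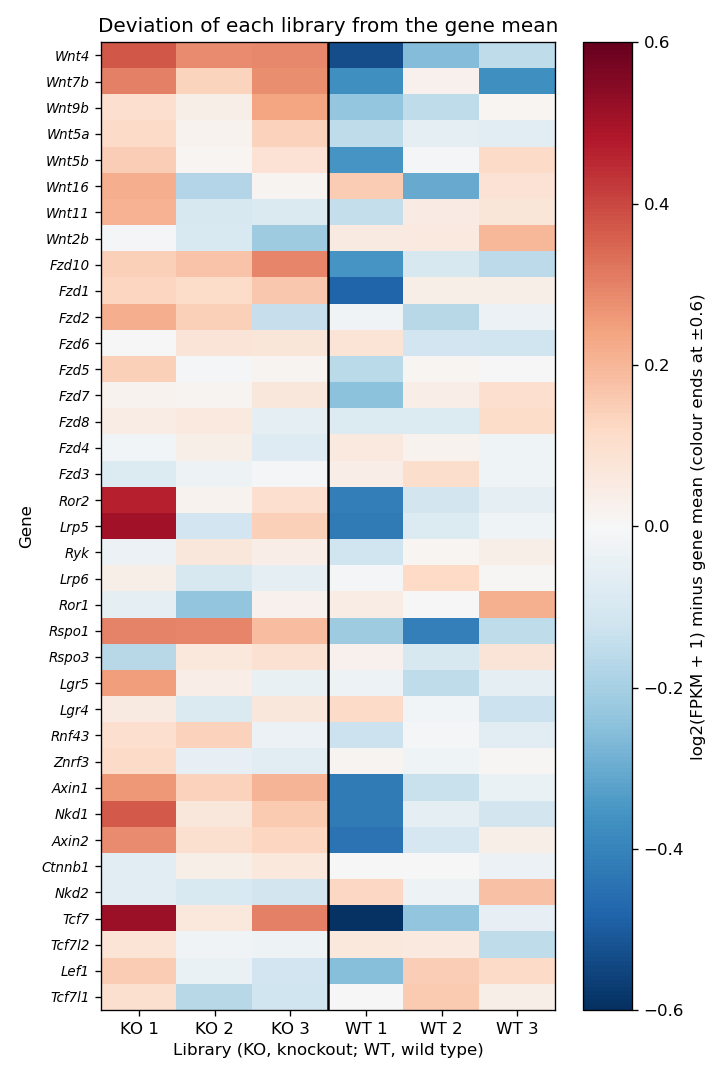
Deviation of each library (columns, knockout left and wild type right) from the mean of each tested member (rows, by role), on log2(FPKM + 1), red above and blue below the gene mean. The strongest colours lie in knockout library 1 and wild-type library 1, for example for Tcf7 and Lrp5.

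The differences also ran along GC content. Over all genes tested, the median log2 change was -0.08 in the lowest of 5 equal groups of transcript GC content and 0.13 in the highest. In the highest group the median deviation from the gene mean was 0.11, 0.05 and 0.05 in the knockout libraries, against -0.14, -0.051 and -0.0080 in the wild-type libraries. Deviations were taken from the mean over all libraries, so opposite signs in the genotypes are largely built in. From the lowest to the highest group the median ran from -0.065 to 0.11 in knockout library 1. It ran from 0.081 to -0.14 in wild-type library 1, and stayed nearly flat in wild-type library 3 (0.007 and -0.0080). Members were GC-rich, with a median of 53.1% against 49.5% for all genes tested, and 14 of the 37 lay in the highest group. Members with a log2 change above 0 had a median GC content of 54.2%, and members below 0 one of 47.0%. When the trend of each library on GC content was subtracted, an alternative chosen after seeing the data, Wnt4 remained called (log2 0.52, limma adjusted p = 0.0351). The log2 change was then 0.36 for Rspo1 and 0.25 for Axin2 (limma adjusted p = 0.199 and 0.424). It was above 0 for 28 of the 37 members, against 49.5% of all genes. In that fit the members with an unadjusted p under 0.05 were 8 higher (Wnt4, Rspo1, Axin1, Tcf7, Wnt5a, Fzd10, Nkd1 and Wnt7b, against 5.9% of all genes) and 3 lower (Wnt2b, Tcf7l1 and Nkd2, against 6.3% of all genes), and the median log2 change was 0.05 for members and -0.0014 for all genes. With these libraries, their GC trend and the genotype cannot be told apart.

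**Figure D4:**
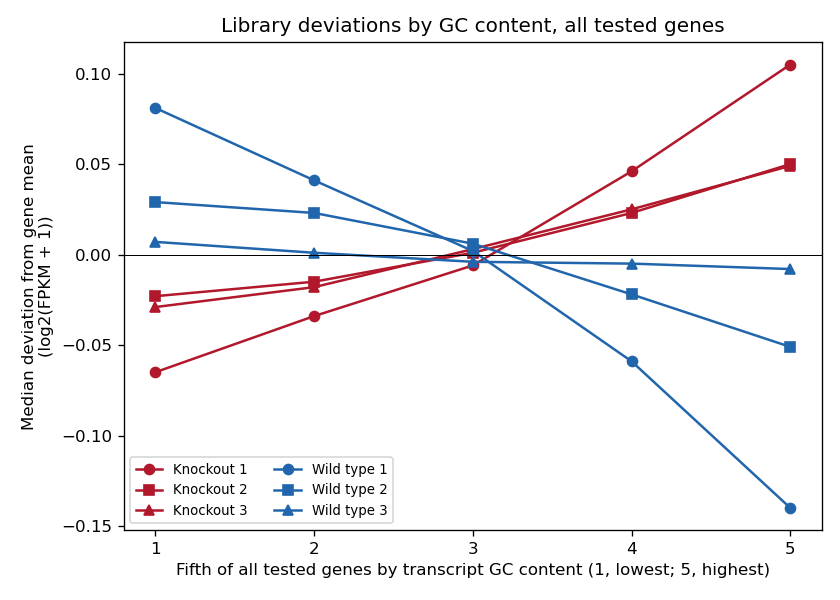
Median deviation from the gene mean (y axis, log2(FPKM + 1)) of each library over all tested genes, in 5 equal groups of rising transcript GC content (x axis). In the highest group the knockout libraries lie at 0.05 to 0.11 and the wild-type libraries at -0.14 to -0.0080.

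Elsewhere in the pathway, 81 further genes were listed, of which 71 were tested. Of these, 1 was called higher and 2 were called lower, against 0.13% and 0.604% of all genes tested. Unadjusted, 22 genes were higher and 3 lower, against 9.14% and 6.94% of all genes tested. The median log2 change was 0.10, against -0.0020 over all genes tested. These counts come from the fit without the GC correction. Both a called rise and a called fall came from the 16 tested antagonists, secreted or held in the membrane, of which 5 were higher and 1 lower unadjusted. The membrane proteins Kremen1 and Apcdd1 were among the higher genes. Notum, which removes the lipid from Wnt ligands, measured 8.38, 7.17 and 7.29 FPKM in knockout libraries, against 2.34, 2.63 and 3.50 FPKM in wild-type libraries (log2 1.18, limma adjusted p = 0.00824). Sfrp1, a secreted protein that binds Wnt ligands, measured 12.7, 11.1 and 11.0 FPKM in knockout libraries, against 23.1, 18.7 and 23.8 FPKM in wild-type libraries (log2 -0.86, limma adjusted p = 0.0127). Among 15 tested planar polarity genes 5 were higher and 2 lower unadjusted, and Prickle2 fell to 4.69, 4.50 and 4.36 FPKM in knockout libraries, against 6.35, 7.08 and 6.65 FPKM in wild-type libraries (log2 -0.48, limma adjusted p = 0.0459).

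In the lists with 0 calls by limma, the gene with the smallest p is named. Among 16 cytoplasmic components, 6 were higher and 0 lower unadjusted, and Dact2, a Dishevelled-binding protein gene, had a log2 change of 0.36 (limma adjusted p = 0.0611). Among 10 nuclear cofactors 1 was higher unadjusted, the co-repressor gene Tle2 (log2 0.40, limma adjusted p = 0.235). Among 11 tested genes known as beta-catenin targets in other tissues, 5 were higher and 0 lower unadjusted, with Id2 at a log2 change of 0.20 (limma adjusted p = 0.153). The ligand transporter gene Wls measured 51.7, 50.7 and 48.8 FPKM in knockout libraries, against 61.1, 56.1 and 51.0 FPKM in wild-type libraries (log2 -0.15, limma adjusted p = 0.367). Of 7 other ligand genes, Wnt8b alone passed the filter (log2 0.22, limma adjusted p = 0.362).

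**Figure D5:**
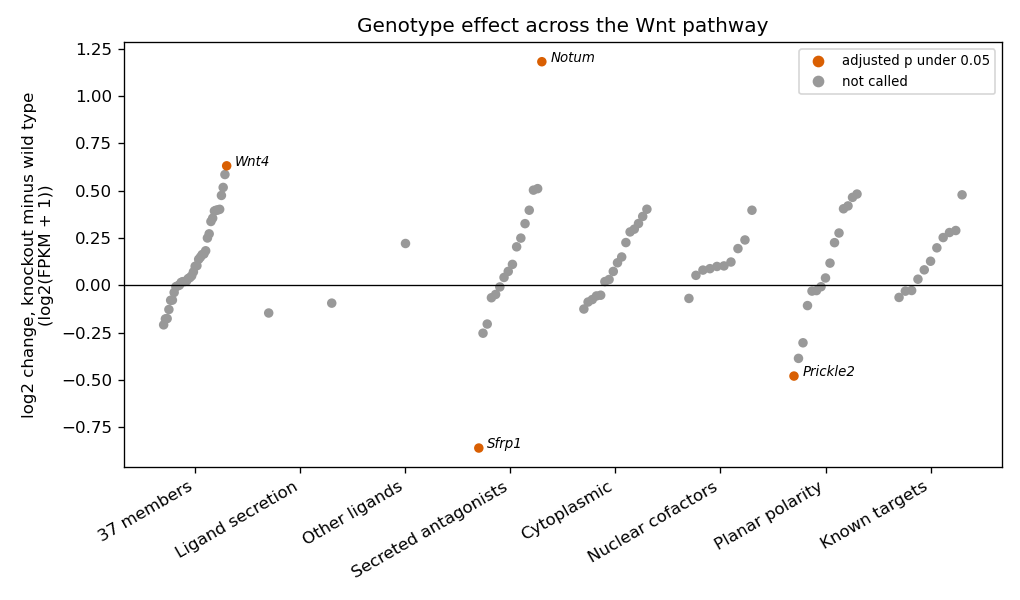
Log2 change (y axis, knockout minus wild type) of each tested gene, for the 37 members and 7 lists of other pathway genes, with called genes in orange. Besides Wnt4 the called genes are Notum at 1.18, Sfrp1 at -0.86 and Prickle2 at -0.48. The list labelled secreted antagonists also holds membrane-bound ones.

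Exons of 10 members overlap a gene on the opposite strand (Wnt5a, Wnt7b, Wnt11, Fzd5, Fzd6, Rspo3, Axin2, Ctnnb1, Lef1 and Tcf7l1), and the labels do not say whether strand was kept, so reads of such pairs could not be told apart. Wnt4, Rspo1, Fzd10, Axin1 and Tcf7 overlap no other exon in GENCODE M21.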

How the data were processed

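RNA of whole kidneys was profiled in 3 knockout and 3 wild-type libraries, grouped by their titles. The authors deposited FPKM values per Ensembl gene in 1 table, and the submitters' processing notes name bcl2fastq 2.17.1.14, Salmon and the build GRCm38 (mm10). Neither Salmon's version nor the authors' annotation is stated there. Median log2 ratios to a geometric mean library were 0.0038 for each of the 6 libraries, so the values had been scaled between libraries.

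Symbols (found for 24469 of 24749 identifiers), positions, transcript lengths and GC content came from GENCODE M21 (GRCm38). Genes averaging 0.5 FPKM or more were fitted as log2(FPKM + 1) with limma 3.58.1 in R 4.3.3, with trend and robust moderation and genotype as the only term. The fit was also run on simulated data with independent noise for each gene. Those data held no GC trend and no deviations shared within a library, so they cannot bear on these features. Fragment totals, on the scale of the deposited values, were approximated from the smallest steps in the low values. GC trends were removed per library by lowess with a span of 0.3. The members, the lists of other pathway genes and the marker lists were chosen with earlier results of these data known. Members named in full are the called gene, the 2 most abundant of each role, the 3 with the smallest p that were not called, and those with a known source. Others were added after their values were seen.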

Additional observations from a re-analysis of the deposited data

How the results depend on the processing

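The number of genes called by limma, 124, was 32 with a replicate block, 47 with the block and the GC correction, and 52 to 147 when 1 library was left out (52 without wild-type library 2, and 66, 57 and 58 without knockout library 1, 2 or 3). Members called higher, 1, became 2 with a pseudocount of 0.1 or a filter at a mean of 1 FPKM, where Rspo1 joined. It became 0 with no filter on low values, equal sums, no robust moderation, no mean-variance trend, or a replicate block with or without the GC correction, and was 0 to 1 without a single library. Members called lower were 0 throughout. Wnt4 had a log2 change of 0.63 with no filter, no robust moderation, no trend or the replicate block (adjusted p = 0.0628, 0.0759, 0.0797 and 0.169), 0.61 with equal sums (0.0883), 0.52 with the block and GC correction (0.140), and 0.52 to 0.71 without a single library. The labels do not say whether replicate numbers pair the libraries, and deviations of same-numbered libraries correlated at 0.024, -0.042 and 0.05.

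Of the 37 tested members 27 kept their direction under all 16 alternatives. The other 10 had log2 changes near 0 that turned sign, and 0 of them were called in any fit. With equal sums Wnt11 was at -0.0022, Znrf3 at -0.017 and Ctnnb1 at -0.00032, and with quantile normalization Znrf3 was at -0.016. The GC correction, with or without the replicate block, put Wnt11 at -0.10, Fzd3 at 0.0013, Fzd7 at -0.0022, Rspo3 at 0.046, Znrf3 at -0.018 and Lef1 at 0.034. Without a single library the values ran from -0.085 to 0.067 for Wnt11, -0.10 to 0.14 for Wnt16, -0.035 to 0.14 for Fzd7, -0.057 to 0.072 for Rspo3, -0.037 to 0.083 for Lgr4, -0.058 to 0.033 for Znrf3, -0.0072 to 0.058 for Ctnnb1, -0.13 to 0.070 for Lef1 and -0.051 to 0.056 for Tcf7l2. Without 1 library, log2 changes also moved by over 1.5 times for several members that kept their direction in those fits. Wnt5b was at 0.029 and 0.26 without wild-type library 1 or 3. Fzd2 was at 0.077 without knockout library 1 and 0.25 without knockout library 3. Tcf7l1 was at -0.21 and -0.077 without knockout library 1 or 2, and -0.083 without wild-type library 2. Smaller changes that moved as far ran from -0.11 to -0.046 for Fzd3, -0.066 to -0.0094 for Fzd4 and 0.043 to 0.13 for Fzd5. They ran from 0.069 to 0.17 for Fzd6, 0.0018 to 0.099 for Fzd8, -0.12 to -0.040 for Lrp6 and 0.0012 to 0.080 for Ryk. These members are examples, and others also moved. The cause of these shifts was not tested. With no counts in the table, no interval for counting error is given, and members under 0.5 FPKM rest on few fragments.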

Other observations

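Of the 8 members below the filter, 3 had their highest value in wild-type library 3. Wnt2, a ligand best known from lung mesenchyme, measured 0.361, 0.262 and 0.217 FPKM in knockout libraries, against 0.226, 0.339 and 1.11 FPKM in wild-type libraries. By the rough fragment estimate, the last value corresponds to about 33 fragments. Fzd9 measured 0.362, 0.263 and 0.248 FPKM in knockout libraries, against 0.227, 0.170 and 0.575 FPKM in wild-type libraries. Rspo2 measured 0.207, 0.188 and 0.0970 FPKM in knockout libraries, against 0.118, 0.0426 and 0.348 FPKM in wild-type libraries. Celsr3, a planar polarity cadherin gene that was also below the filter, measured 0.0666, 0.0445 and 0.0524 FPKM in knockout libraries, against 0.0384, 0.0748 and 0.555 FPKM in wild-type libraries. The same library held the highest levels of the adrenal genes Hsd3b1, Cyp11a1, Cyp21a1, Cyp11b1 and Nr5a1, but not of Star or Mc2r. Whether neighbouring tissue takes part in these values was not tested.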
